A study of Mus musculus with 8 samples.

Results

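The miR-30 guide arms are the 5 mouse microRNAs (miRNAs) mmu-miR-30a, mmu-miR-30b, mmu-miR-30c, mmu-miR-30d and mmu-miR-30e, written without the species prefix from here on. They were taken by name from the probe annotation of the arrays and make up 5 of the 567 mouse miRNAs measured. All 5 belonged to the 212 miRNAs detected often enough to be tested. The cells were dendritic cells grown from C57BL/6 mouse bone marrow with GM-CSF at 40 ng/ml, and the non-adherent cells were harvested on day 9. The 4 CpG samples then received ODN1826, a class B CpG oligonucleotide, overnight at 10 µM, and the 4 untreated samples received none. The untreated samples are labelled as medium alone in one place and as PBS in another, and the labels name no control oligonucleotide. All 8 samples were hybridised in 1 colour, Cy3, to the arrays of 1 slide. The labels give an untreated and a CpG sample of the same replicate number the same DC number. They do not say whether that number stands for an animal or a culture of its own. The p-values thus set the difference between groups against the spread of these samples, and part of that spread may be technical. They do not say how far the results hold for other animals.

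A miRNA guide arm is the strand of a hairpin that is loaded into Argonaute, where its seed near the 5′ end pairs with messenger RNAs and lowers their output. The miR-30 guides are present in many tissues and share 1 seed, so they are predicted to act on the same messages. Messages known to be repressed by miR-30 in various cells include those for Snai1, a repressor of epithelial genes, Dll4, a Notch ligand, and Prdm1, a transcription factor that drives plasma cell differentiation.

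The mature sequences of miR-30a, miR-30c and miR-30e from RefSeq (GRCm38.p6) are shown to compare the member with the largest difference with 2 others, and the seed, bases 2 to 8, is in capitals.

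miR-30a: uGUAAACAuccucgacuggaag
miR-30c: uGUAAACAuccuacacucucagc
miR-30e: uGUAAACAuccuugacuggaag

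The seed GUAAACA was the same in all 3, and so were the first 12 bases. Counted from 1 at the 5′ end, miR-30a and miR-30e differed by the 1 substitution C13U among 22 bases. From miR-30a to miR-30c there were 5 substitutions, C13A, G14C, G18C, G19U and A20C, all beyond the seed. One further miRNA on the array has this seed, miR-384-5p, and its sequence departs from the others directly after it.

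miR-384-5p: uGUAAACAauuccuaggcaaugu

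Each array probe is annotated with the stretch of the genome (mm9) that its target covers, and the length of that stretch gives the number of bases the probe reads from the 3′ end of the miRNA. The longest probes read the bases in capitals here.

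miR-30a, 17 bases read: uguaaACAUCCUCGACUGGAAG
miR-30c, 18 bases read: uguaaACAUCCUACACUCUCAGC
miR-30e, 17 bases read: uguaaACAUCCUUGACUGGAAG

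The targets of the miR-30a and miR-30e probes thus differ by C13U alone, and how far the probes of one take up the other was not tested. The probes of miR-30c read a target with 5 substitutions from miR-30a and 5 from miR-30e, counted from the 5′ end. That target also has a further C at its 3′ end.

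The 5 guides come from 3 places in the genome. The targets of miR-30a (chr1:23279118-23279134) and miR-30c (chr1:23298558-23298575) lay 19.4 kb apart in the mm9 annotation of the array. Those of miR-30b (chr15:68169031-68169047) and miR-30d (chr15:68172819-68172832) lay 3.8 kb apart. miR-30e (chr4:120445265-120445281) lay 3.1 kb from miR-30c-1*, the other arm of a second miR-30c hairpin. RefSeq places the hairpins of miR-30e and miR-30c-1 within Nfyc, the gene of a subunit of the NF-Y transcription factor. The mature miR-30c sequence was the same at its 2 loci, so the array cannot say which hairpin the miR-30c signal came from.

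Before any scaling, the CpG arrays were brighter than the untreated ones. The 75th percentile of the signal of the 177 miRNAs detected on all 8 arrays was 101 to 144 intensity units on untreated arrays and 157 to 280.5 on CpG arrays, and between 191 and 203 miRNAs were detected on an untreated array against 213 to 236 on a CpG array. The array signals were therefore divided by that percentile, and the differences of the members, of the tested passenger arms and of the comparison families are also given without this step. Of the 212 miRNAs tested, 30 passed the threshold of 0.05 on the limma adjusted p (14.2%), 16 higher and 14 lower with CpG, and the median difference was -0.19 on the log2 scale. Without scaling 88 passed, all higher, and the median was 0.60. All 6 haematopoietic and myeloid marker miRNAs, among them miR-142-3p and miR-223, were detected on all 8 arrays, with a summed scaled level of 129 to 158 in untreated and 123 to 151 in CpG samples. None of 3 erythroid, 4 measured stromal or 2 endothelial markers was detected on any array, which puts miR-451, miR-144, miR-143, miR-145 and miR-126-3p among those not detected. Of 3 lymphoid markers miR-150 was not detected and the other 2 were (summed level 1.29 to 1.59 untreated, 0.963 to 1.58 CpG), and of 5 epithelial markers 3 were detected on at least 1 array (0.104 to 0.133 untreated, 0.0893 to 0.102 CpG). The part of these lists in the miR-30 values was not tested. The RNA came from bulk cultures, where fewer cells of a type and less RNA per cell cannot be told apart.

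All 5 guides had a lower mean with CpG after scaling, by 0.34 to 0.81 on the log2 scale, and miR-30c alone passed the test, at 1.75-fold lower. miR-30a passed as well when the replicate number was added as a block (limma adjusted p = 0.0464). The median of the 5 differences was -0.48, against -0.19 for all 212 miRNAs, of which 64.6% were below 0. The 1 called member of 5 stands beside 6.6% of all tested miRNAs called lower and 7.55% called higher. Before adjustment the limma p was under 0.05 for 4 of the 5, miR-30d being the exception, as for 40.1% of all tested miRNAs. In miR-30b and miR-30c every CpG sample was below every untreated one, a pattern shown by 19.8% of all tested miRNAs. A further 7.08% were apart in the other direction, which makes 26.9% without overlap. The values below are log2 of the signal over the array's 75th percentile, given in the order of replicates 1 to 4, and levels of different miRNAs are not compared because probes differ in brightness.

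**Figure D1:**
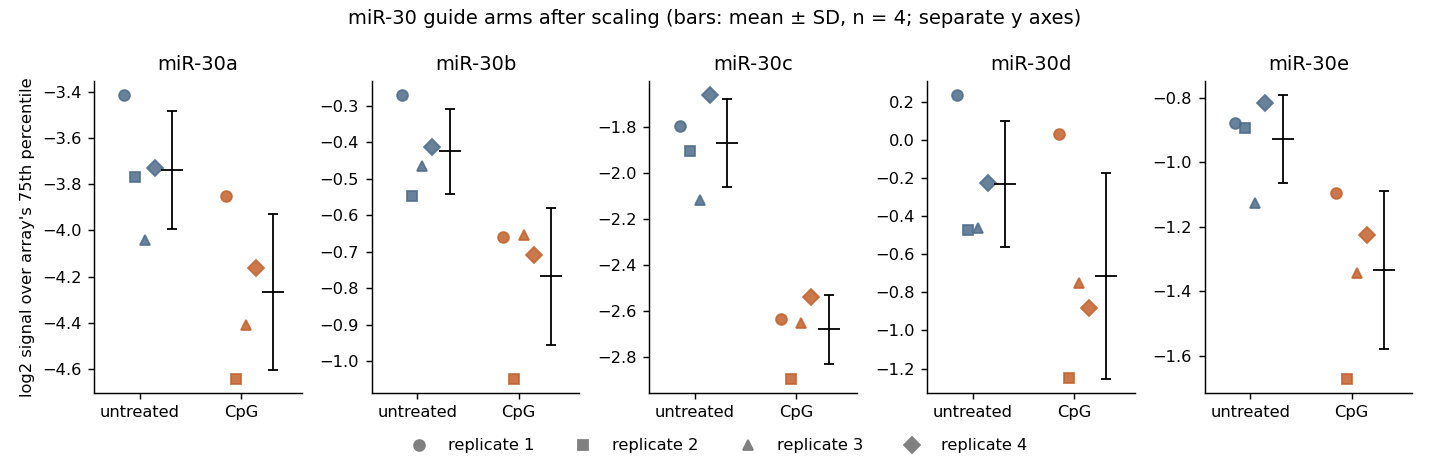
Scaled level of each miR-30 guide on every array (y axis, log2 signal over the array's 75th percentile, with a separate axis for each miRNA) in untreated and CpG samples, where symbols give the replicate number and bars the mean and SD of 4 samples. The groups are apart for miR-30b and miR-30c, and CpG replicate 2 is the lowest sample in all 5 panels.

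miR-30c was at -1.80, -1.91, -2.12 and -1.66 in the untreated samples and at -2.64, -2.90, -2.65 and -2.54 with CpG. The groups were apart, since the highest CpG sample lay below the lowest untreated one. The means were -1.87 ± 0.19 and -2.68 ± 0.15 (SD, n = 4 each). The difference of -0.81 (SE 0.15) passed with a limma adjusted p of 0.0127, and it was the 6th lowest of the 212. It lay 0.62 further down than the median miRNA, and it was -0.86 among the 4 arrays in the first row of the slide and -0.76 among the 4 in the second, with 2 samples a group in each. The call was lost without untreated replicate 2 (-0.82, limma adjusted p = 0.05005), without CpG replicate 3 (-0.82, limma adjusted p = 0.0520) and without scaling (-0.011, limma adjusted p = 0.965).

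miR-30b, whose hairpin is the neighbour of miR-30d, was at -0.27, -0.55, -0.46 and -0.41 untreated and at -0.66, -1.05, -0.65 and -0.71 with CpG. The groups did not overlap, although the gap between the lowest untreated and the highest CpG sample was small. The difference was -0.34 (SE 0.14, limma adjusted p = 0.110), from -0.42 ± 0.12 to -0.77 ± 0.19 (SD, n = 4 each), and it did not pass. It was the smallest of the 5 and 0.15 below the median of all tested miRNAs.

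miR-30e, which differs from miR-30a by 1 base, was at -0.88, -0.89, -1.13 and -0.82 untreated and at -1.10, -1.67, -1.34 and -1.23 with CpG. The overlap rested on untreated replicate 3, which was slightly below CpG replicate 1. The means were -0.93 ± 0.14 and -1.33 ± 0.25 (SD, n = 4 each). The limma adjusted p of the difference, -0.41 with an SE of 0.16, was 0.0993.

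miR-30a was at -3.42, -3.77, -4.04 and -3.73 untreated and at -3.85, -4.64, -4.41 and -4.16 with CpG. Here too untreated replicate 3 lay below CpG replicate 1, and the remaining CpG samples were below all untreated ones. The means were -3.74 ± 0.26 and -4.27 ± 0.34 (SD, n = 4 each). They differed by -0.53 (SE 0.20), with a limma adjusted p of 0.0941. It was the second largest decrease of the 5, and its error was larger than that of miR-30c. It passed without CpG replicate 1, at -0.67 (limma adjusted p = 0.0348), and with the replicate number as a block.

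miR-30d was the most variable member, at 0.24, -0.47, -0.46 and -0.22 untreated and at 0.03, -1.25, -0.75 and -0.88 with CpG. Replicate 1 was the highest sample in both groups, and its CpG value lay above 3 of the 4 untreated ones. The means were -0.23 ± 0.33 and -0.71 ± 0.54 (SD, n = 4 each). CpG minus untreated was -0.48 with an SE of 0.28 (limma adjusted p = 0.199). Without CpG replicate 1 the difference was -0.73 and passed (limma adjusted p = 0.0368).

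**Figure D2:**
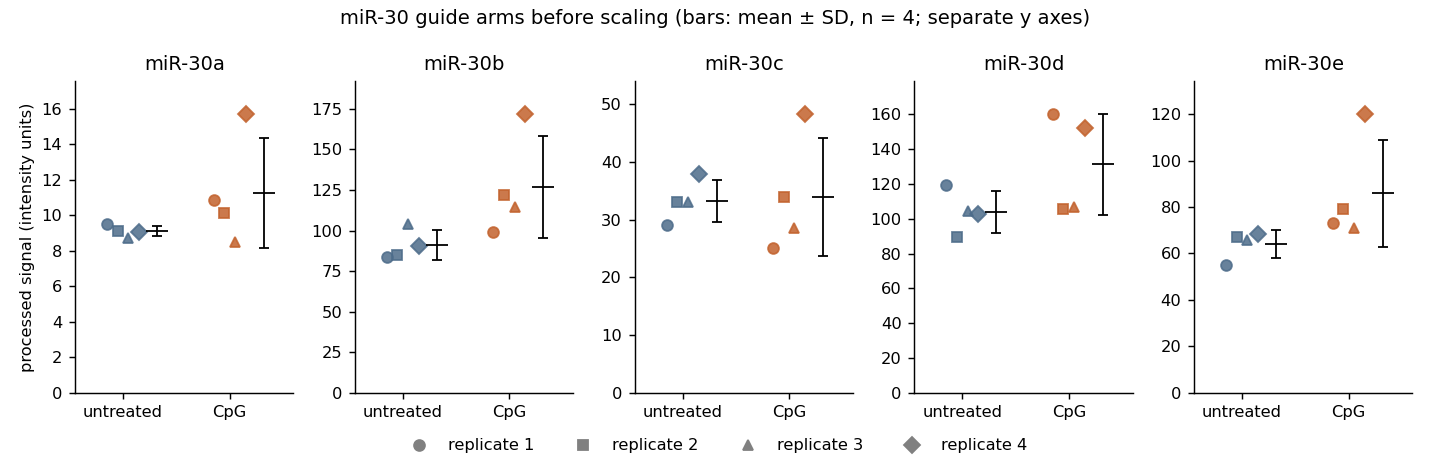
Processed signal of each guide before scaling (y axis, intensity units from 0, with a separate axis for each miRNA), with symbols for the replicate and bars for the mean and SD of 4 samples. The CpG mean is above the untreated mean for miR-30a, miR-30b, miR-30d and miR-30e, and the means of miR-30c are close, at 33.3 and 34.0.

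The direction of 4 members depended on the scaling. The difference of miR-30c was below those of the other 4 either way, an order that a factor common to each array cannot change. Before scaling the miR-30c signal was 29.1, 33.1, 33.1 and 38.0 intensity units untreated and 25.2, 33.9, 28.6 and 48.3 with CpG. The CpG samples lay on both sides of the untreated ones, and the means were 33.3 ± 3.64 and 34.0 ± 10.2 (SD, n = 4 each). miR-30e had a higher unscaled mean with CpG, 85.8 ± 22.9 against 64.1 ± 6.12. It was the one member whose unscaled groups did not overlap, at 55.0 to 68.4 untreated and 71.0 to 119.8 with CpG. Its unscaled difference of 0.39 did not pass (limma adjusted p = 0.148). The share of all tested miRNAs without overlap before scaling was not computed, so this is not read as a trait of miR-30e. Without scaling 88 of the 212 were called, all higher.

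miR-30b went from 90.9 ± 9.31 to 127 ± 31.3 units without scaling, miR-30d from 104 ± 12.02 to 131 ± 28.95, and miR-30a from 9.11 ± 0.30 to 11.3 ± 3.096 (SD, n = 4 each). CpG replicate 4, the array with the highest 75th percentile, gave the highest signal for 4 members, and CpG replicate 1 for miR-30d. On the log2 scale the unscaled differences were 0.46 for miR-30b, 0.31 for miR-30d and 0.27 for miR-30a, none past the threshold (limma adjusted p = 0.105, 0.224 and 0.285). With the median unscaled difference of 0.60 taken off, the members stood at -0.14 (miR-30b), -0.21 (miR-30e), -0.29 (miR-30d), -0.33 (miR-30a) and -0.61 (miR-30c). All 5 were below the median miRNA and miR-30c was the lowest of the 5 in all 29 fits made, the reported one included. Much of this agreement is built in. A factor common to an array cancels in the order of the members and nearly cancels in their distance to the median. Fits that change only blocks, filters or eBayes options reuse the same member differences.

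**Figure D3:**
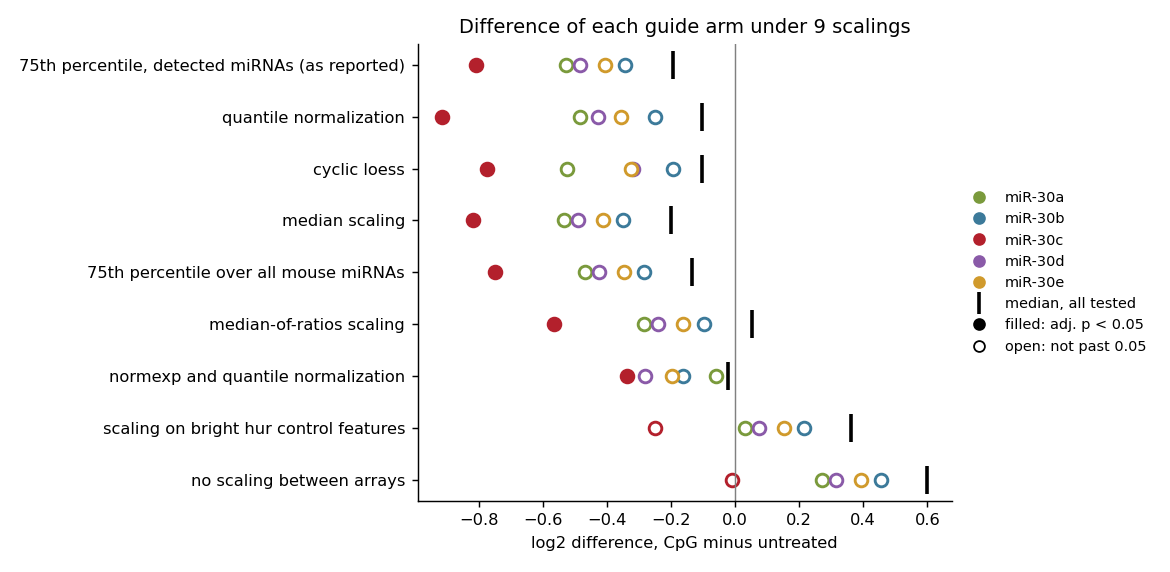
Difference of each guide between CpG and untreated samples (x axis, log2) under 9 ways of scaling the arrays (rows), with filled points past an adjusted p of 0.05 and black ticks at the median of all tested miRNAs. miR-30c is leftmost in every row, and all 5 guides lie left of the tick in every row, while 4 of them lie right of 0 without scaling and on the control features. Rows that divide each array by its own factor keep the order of the guides by construction.

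Differences between 2 members within an array do not depend on a factor common to the array, so all 10 pairs were compared on that scale by exact two-sided permutation over the 70 arrangements of 4 and 4 samples. The smallest p this design allows is 0.0286. No pair passed after adjustment over the 10. Even with all 4 pairs of miR-30c at that smallest p and no other pair there, none would have passed. The adjusted test therefore could not detect a change confined to miR-30c. miR-30c had been singled out with earlier results of these data known, so its pairs are a description. The size of such a difference within a group reflects the probes as well as the miRNAs, and the change of it between groups is what was compared.

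miR-30b minus miR-30c was 1.53, 1.36, 1.65 and 1.25 on the untreated arrays and 1.98, 1.85, 2.00 and 1.83 on the CpG arrays. The groups did not overlap, and the ratio of miR-30b to miR-30c was 1.38-fold higher with CpG (difference 0.47, SE 0.099, exact permutation p = 0.0286, adjusted over 10 pairs 0.143). miR-30c minus miR-30e was -0.92, -1.02, -0.99 and -0.85 untreated and -1.54, -1.22, -1.31 and -1.31 with CpG. Again no CpG array reached the untreated range, and the ratio of miR-30c to miR-30e was 1.32-fold lower with CpG (difference -0.40, SE 0.078, exact permutation p = 0.0286, adjusted 0.143). Within the first and second row of the slide these differences were 0.52 and 0.42 for miR-30b minus miR-30c, and -0.54 and -0.26 for miR-30c minus miR-30e.

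The other pairs with miR-30c overlapped. miR-30a minus miR-30c differed by 0.28 (SE 0.16, exact permutation p = 0.143, adjusted 0.476). A miR-30c hairpin lies near miR-30a on chromosome 1 and another near miR-30e on chromosome 4. Which of them gave the miR-30c signal is not known, so neither pair is singled out as neighbours. miR-30c minus miR-30d differed by -0.32 (SE 0.28, exact permutation p = 0.314, adjusted 0.571). The 6 pairs without miR-30c differed by -0.19 to 0.14, with adjusted exact permutation p of 0.571 to 0.771. Among them miR-30b minus miR-30d, the neighbours on chromosome 15, differed by 0.14 (SE 0.24). For miR-30a minus miR-30e, the closest pair among the sequences shown, the difference was -0.12 (SE 0.11). A p above the threshold does not show that these members moved alike. The sign of all 4 pairs with miR-30c was kept in 16 of 16 alternatives. Part of this is built in, since total gene signal nearly repeats the reported values and fits with arrays left out reuse the other arrays. The size was not kept. With normexp background correction and quantile normalization, miR-30b minus miR-30c was 0.17 (exact permutation p = 0.114), miR-30c minus miR-30e was -0.14 (exact permutation p = 0.0571) and miR-30c minus miR-30d was -0.055 (exact permutation p = 0.743).

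**Figure D4:**
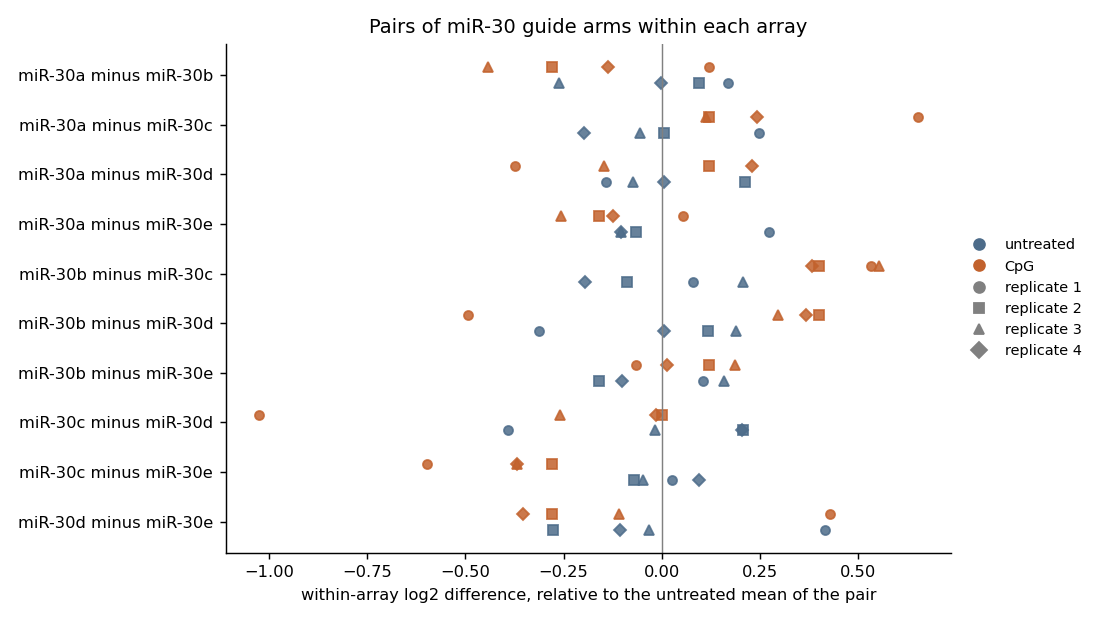
Difference between 2 guides within each array (x axis, log2, set to 0 at the untreated mean of the pair) for the 10 pairs (rows), with colours for the group and symbols for the replicate. Only the rows of miR-30b minus miR-30c and miR-30c minus miR-30e show the groups apart.

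Each member is read by 2 or 3 probes, 11 in all, printed as 100 spots per array. None of the 800 spots was saturated and 23 were left out as outliers. After scaling, 10 probes had a lower mean with CpG, and 5 of these showed no overlap between the groups. The shares over all probes of the array were not computed, so these counts are not read as a trait of miR-30. Among the 212 tested miRNAs 64.6% were below 0 and 19.8% were lower without overlap. The remaining probe, which reads 15 bases of miR-30a, was not well above background on any array and was at the floor on all 8.

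After scaling, both miR-30c probes were lower with CpG by similar amounts, with the groups apart. The 18-base probe differed by -0.81 and the 17-base probe by -0.79. The 18-base probe read 48.9, 57.3, 54.6 and 64.5 intensity units untreated and 42.8, 56.7, 48.0 and 81.7 with CpG before scaling, and all 80 of its spots were well above background. The 17-base probe was dimmer, with means of 10.4 and 10.7 units and 58 of 80 spots well above background.

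The probes read for each other member also pointed down after scaling. Before scaling these probes were all higher with CpG, by 0.21 to 0.46, and those of miR-30c differed by -0.013 (18 bases) and 0.0064 (17 bases). Probes of the same member read overlapping stretches of the same miRNA, so their agreement is not independent. On the scaled values, the miR-30b probes differed by -0.34 (17 bases) and -0.38 (16 bases), both without overlap. Those of miR-30e differed by -0.41 (17 bases, no overlap) and -0.36 (16 bases, with overlap), and those of miR-30d by -0.47 (14 bases) and -0.51 (13 bases), both with overlap. For miR-30a the 17-base probe, with all 48 spots well above background, differed by -0.49 and the 16-base probe, with 5 of 56 such spots, by -0.59. Over all probes, 33.1% of the miR-30a spots and 86.3% of the miR-30c spots were well above background, against all 160 spots of each of the other 3 members, so miR-30a has the least signal behind its value.

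**Figure D5:**
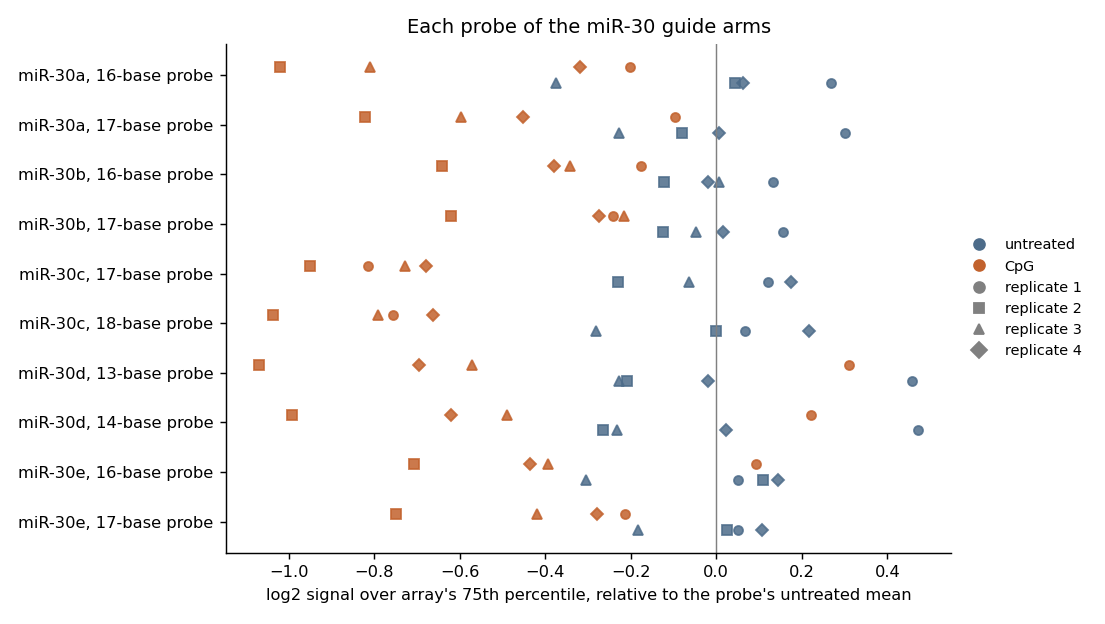
Scaled signal of 10 probes (rows; the 15-base miR-30a probe, at the floor on all arrays, is not drawn) on each array, as log2 set to 0 at the probe's untreated mean (x axis), with colours for the group and symbols for the replicate. Both miR-30c probes, both miR-30b probes and the 17-base miR-30e probe show the groups apart.

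The opposite arms of the miR-30 hairpins, the passenger strands marked by a star, carry other seeds. Only miR-30b* and miR-30e* were detected often enough to be tested. miR-30a* and miR-30c-2* were detected on none of the 8 arrays, and miR-30c-1* on 1 untreated and 2 CpG arrays, so that none of these was tested. The passenger arms are shown because the 2 that go with miR-30a and miR-30e share the seed UUUCAGU, and the 2 of miR-30c the seed UGGGAGA, in capitals.

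miR-30a*: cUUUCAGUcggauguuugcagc
miR-30e*: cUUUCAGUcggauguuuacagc
miR-30c-1*: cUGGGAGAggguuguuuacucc
miR-30c-2*: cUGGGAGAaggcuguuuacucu

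miR-30e* was detected on 2 untreated and 3 CpG arrays and differed by -0.27 (SE 0.25, limma adjusted p = 0.394). Without scaling its difference turned to 0.51 (limma adjusted p = 0.236). miR-30b* was detected on 3 untreated and 4 CpG arrays and had a higher mean with CpG, by 0.51 (SE 0.39, limma adjusted p = 0.321), which did not pass. Without scaling it was higher by 1.31 (SE 0.34) and passed (limma adjusted p = 0.0191), beside 88 of all 212 miRNAs. Its CpG values were -4.68, -5.11, -3.15 and -4.97 on the scaled log2 scale, so 1 sample was well above the other 3. The check for outlying samples given below did not flag it. In that sample, CpG replicate 3, miR-30b* read 20.4 intensity units before scaling, against 6.13 to 8.96 in the other CpG samples and 3.12 to 4.28 in the untreated ones. miR-384-5p, the other carrier of the miR-30 seed, was detected on no array.

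The miRNAs with profiles most like each guide were found by the root-mean-square difference between log2 values over the 8 arrays, each profile centred on its mean, among 207 other tested miRNAs. Nearest to miR-30c were miR-484 (0.128), miR-712 (0.146) and miR-139-5p (0.147), where the median over all others was 0.405. Having been chosen for profiles like that of miR-30c over the same arrays, they were bound to be lower with CpG too, so their differences of -0.66, -0.72 and -1.01 are a description. Without scaling these were 0.14, 0.083 and -0.21, and none passed (limma adjusted p = 0.543, 0.715 and 0.426). The nearest to miR-30e were miR-423-5p (0.0481), miR-103 (0.0622) and miR-185 (0.0652), and those to miR-30b were miR-23b (0.0555), miR-342-3p (0.0688) and miR-103 (0.0709). The nearest to miR-30a were miR-324-5p (0.102), miR-23a (0.105) and miR-27a (0.114). miR-30d had miR-27b (0.150), miR-24-2* (0.150) and miR-152 (0.165), with the median over all others at 0.456.

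Within the family, the same measure was smallest between miR-30b and miR-30e (0.121) and between miR-30a and miR-30e (0.150). It was 0.223 to 0.378 between miR-30c and each other member. The neighbouring miR-30b and miR-30d stood at 0.303. Of the guides that lie near a miR-30c hairpin, miR-30a stood at 0.239 from miR-30c and miR-30e at 0.223. For each guide 3 or more miRNAs outside the family were nearer than its closest relative. Those were the nearest of 207 candidates, set against few relatives, so nearer ones are likely from the numbers alone. The comparison therefore does not show whether members of the family are more alike than other miRNAs. All of these arrays share 1 slide and 1 scaling, so near profiles also share what the arrays have in common.

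Other families of abundant guides are given for comparison only. Of 9 tested members of let-7, whose guides also share a seed, 1 passed as lower, 5 did not overlap between the groups and the median difference was -0.41, where 6.6% of all tested miRNAs passed as lower and 26.9% did not overlap. Without scaling the let-7 median turned to 0.39, with 1 member called higher and 0 lower. Of the miR-26 pair, 1 passed as lower, neither overlapped and the median was -0.48, which turned to 0.32 with 0 called without scaling. None of 3 miR-29 members passed, and their median was 0.048, against 0.85 with 2 called higher without scaling. These unscaled values stand beside 88 of all 212 tested miRNAs called without scaling, all higher, and a median of 0.60. Differences between these families and miR-30 were not tested.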

How the data were processed

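Per the file headers, the deposited array files came from Agilent's Feature Extraction software, version 9.5.3.1, with mm9 coordinates for the probe targets. The processed signal in it is an intensity per spot, background-subtracted and not scaled between arrays. The authors' deposited table holds 260 miRNAs as intensities, and 2039 of 2080 values there were within 0.1% of the total gene signal in the array files, while the other 41 were 0.01. Limma is named in the submitters' processing notes without a version.

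Spots with outlier flags were dropped. Spots were averaged per probe and probes per miRNA. Signals were divided by the array's 75th percentile over 177 miRNAs detected on all arrays, raised to a floor of 0.0107 where lower, and put on the log2 scale, so log2 values here are computed from the deposited intensities. A miRNA was tested if detected on at least 3 of 4 arrays of a group. The test was limma 3.58.1 (lmFit and eBayes, two-sided) in R 4.3.3, with Benjamini-Hochberg adjustment over 212 miRNAs, and the script was tested on simulated data. Tables and plots used Python 3.11.15, pandas 2.3.3 and matplotlib 3.10.9. The number of arrays limits the precision. Alternatives covered scaling, background, probe summaries, filters, floors, blocks and left-out arrays.

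The members, marker lists and comparison families were chosen with earlier results of these data known. The miRNAs named were the 5 members, the other arms of their hairpins, miR-384-5p and, for each member, the 3 miRNAs with the nearest profiles. The arms were matched by the array's names. RefSeq mature sequences were matched by name for 3 members, 4 passenger arms and miR-384-5p.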

Additional observations from a re-analysis of the deposited data

Results flagged for a closer look

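Of 62 groups of 4 values checked for a sample far from the others, 4 had one, where chance gives about 1 in 20. miR-30b was at -1.05 on CpG replicate 2 against a mean of -0.67 on the other 3 CpG arrays. miR-23b, the miRNA nearest to miR-30b in profile, was at 0.94 on the same array against 1.42. The difference of miR-30a minus miR-30e was -2.54 on untreated replicate 1 against -2.90 on the other 3 untreated arrays. The difference of miR-30b minus miR-30d was -0.69 on CpG replicate 1 against 0.16 on the other 3, which goes with the high miR-30d value of that sample.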

How the results depend on the processing

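miR-30c was below 0 in all 30 alternatives, at -0.92 to -0.011, and passed in 21 of the 28 that gave a test. It did not pass without scaling (-0.011), on the bright hur control features (-0.25), in the authors' deposited table (-0.013), without the filter on dim miRNAs (-0.81, limma adjusted p = 0.0504), without CpG replicates 2 and 4 (-0.77), and without untreated replicate 2 or CpG replicate 3. With 1 array left out its difference lay between -0.89 and -0.74. miR-30a was at -0.67 to -0.40, miR-30b at -0.38 to -0.25, miR-30d at -0.73 to -0.31 and miR-30e at -0.49 to -0.29 with 1 array left out. Without scaling, on the control features and in the authors' deposited table, the sign turned for miR-30a (0.27, 0.031 and 0.26), miR-30b (0.46, 0.22 and 0.45), miR-30d (0.31, 0.074 and 0.31) and miR-30e (0.39, 0.15 and 0.39), and none of these passed. Those 3 settings do not remove the brighter signal of the CpG arrays, or remove less of it, as their medians of 0.60, 0.36 and 0.60 over all tested miRNAs show.

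The count of 30 called miRNAs (16 higher, 14 lower) became 88 without scaling (88 and 0), 72 on the control features (70 and 2), 87 in the authors' deposited table (87 and 0), 18 with median scaling (11 and 7), 19 with quantile normalization (9 and 10), 17 with cyclic loess (11 and 6), 12 with normexp and quantile (7 and 5), 16 with the brightest probe (12 and 4), 3 among 567 without the filter, 48 with a floor 2 times higher (14 and 34) and 4 without CpG replicates 2 and 4. It was 22 with median-of-ratios scaling (17 and 5) and 23 with the 75th percentile over all mouse miRNAs (16 and 7), and 44 with eBayes using trend and robust options (16 and 28). It ranged from 5 to 68 with 1 array left out. The count was 12, 5 and 17 without untreated replicates 1, 2 and 4, and 68, 11 and 5 without CpG replicates 1, 2 and 3. The cause of these shifts was not tested.

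Of pairs, miR-30d minus miR-30e turned to 0.0049 with cyclic loess, miR-30b minus miR-30e to -0.025 with outlier spots kept, and with normexp and quantile miR-30a minus miR-30b, miR-30d and miR-30e turned to 0.10, 0.22 and 0.14. With arrays left out, where no test was made, miR-30d minus miR-30e turned to 0.16 without CpG replicates 2 and 4, 0.013 without CpG replicate 4 and 0.060 without untreated replicate 1, miR-30b minus miR-30d to -0.0997 without CpG replicates 2 and 4, and miR-30a minus miR-30d to 0.067 without CpG replicate 1 and 0.027 without untreated replicate 2. These 11 turns fell on the 6 pairs without miR-30c. The smallest adjusted exact permutation p of any pair was 0.0952.

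Same-numbered samples share a DC number in their labels, and whether they are pairs from a shared culture is not stated. With each miRNA's group mean taken off, the same-numbered samples correlated over the 212 miRNAs at 0.277, -0.259, 0.250 and 0.0962 for replicates 1 to 4. The reported test did not take them as pairs. These correlations cannot settle whether the samples were paired. With the replicate number as a block, 38 miRNAs were called, 27 of them shared with the 30, and miR-30a, still at -0.53, passed (limma adjusted p = 0.0464) beside miR-30c.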
